A study of Mus musculus with 4 samples.

Results

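Rad21 peaks around the genes Rag1, Rag2 and Irf4 were examined in v-Abl transformed pro-B cells, B-lineage progenitors made immortal by a viral kinase. Rag1 and Rag2 are neighbours and shared 1 gene window on chromosome 2, from 101464000 to 101497000. The Irf4 window lay on chromosome 13, from 30841000 to 30859000, and all positions of peaks are in mm9. Every peak in these windows or within 300 kb on either side was taken, and peaks of the 4 libraries were joined into merged regions where they touched or overlapped. This gave 14 regions in the Rag domain (the window with both flanks, 633 kb) and 18 in the Irf4 domain (618 kb), 32 of 34743 merged regions in all. Regions are numbered along the chromosome within each domain. The rule for the members uses gene positions and no measured value, but the genes were proposed with earlier results of these data known.

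Rad21 is a core subunit of cohesin, a ring-shaped complex that holds sister chromatids together and forms chromatin loops, often anchored where CTCF is bound. RAG1 and RAG2 together form the nuclease that starts V(D)J recombination by cutting antigen receptor genes. IRF4 is a transcription factor that acts in light chain gene activation and later in plasma cells. In v-Abl lines the kinase inhibitor STI-571 arrests the cells, and Rag1, Rag2 and Irf4 are known as genes induced on that arrest. Distant enhancers upstream of Rag2 are known to act on both Rag genes.

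The data were 4 Rad21 ChIP-seq (chromatin immunoprecipitation with sequencing) peak lists. Of these, 2 came from cells called WT, which carried an Emu-Bcl2 transgene and were RAG1 deficient. The other 2 came from 53BP1 knockout cells with the same transgene and the same RAG1 deficiency. 53BP1 is a chromatin-bound factor of double-strand break repair, and the Emu-Bcl2 transgene, which is driven by the immunoglobulin heavy chain enhancer, keeps arrested B-lineage cells alive. The cells of all 4 libraries received 3 uM STI-571 for 4 days before fixation with 1% formaldehyde. No untreated library was analysed here, so the lists show occupancy after the arrest and not a change on induction. Because all cells were RAG1 deficient, the Rag1 gene may itself be altered in every library, and how the allele was made is not stated in the sources used here. The labels leave unsaid whether duplicates are separate cultures or clones, and p-values then measure a spread that may be technical. The antibody is Rad21 in titles and protocol but 53BP1 in the treatment label of all 4 samples; the former is followed here. Peak lists hold no expression values, so neither the cell type nor the genotypes were checked by marker genes.

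Read depth is unknown, since the lists hold no read counts. The lists held 21971 and 23029 peaks in WT versus 25145 and 22792 in knockout cells. The fold of a peak is the authors' enrichment of signal over background, with list medians of 4.10, 4.06, 4.15 and 3.67 in the same order. Strong peaks were scarcer in the second knockout library, where 16.5% of peaks reached a −log10 q of 5; the WT lists had 27.0% and 27.7% and the first knockout list 25.9%. A fold was therefore read by its rank in its own list (rank 1 is the highest) or by its percentile, the percentage of that list's peaks with a lower fold.

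The sequences in front of the genes show how unlike the 3 starts are. Each run holds the 250 bases before the annotated transcript start, 5′ to 3′ in the direction of the gene, from RefSeq on GRCm38.p6. That is not the build of the peaks, so no peak was placed on these letters. Capitals mark every match, on either strand, to the core AGGNGGC of the CTCF motif, the Runx motif TGTGGT, the E-box CAGGTG, the Foxo motif TGTTTAC and the TATA box TATAAA. No match of one motif overlapped a match of another here.
Rag2, chr2:101624462-101624711, plus strand: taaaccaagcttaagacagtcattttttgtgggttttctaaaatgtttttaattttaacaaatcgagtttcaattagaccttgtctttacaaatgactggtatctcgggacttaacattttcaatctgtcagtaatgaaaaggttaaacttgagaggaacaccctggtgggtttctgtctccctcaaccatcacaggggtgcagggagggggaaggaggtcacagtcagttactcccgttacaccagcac
Rag1, chr2:101649533-101649782, minus strand: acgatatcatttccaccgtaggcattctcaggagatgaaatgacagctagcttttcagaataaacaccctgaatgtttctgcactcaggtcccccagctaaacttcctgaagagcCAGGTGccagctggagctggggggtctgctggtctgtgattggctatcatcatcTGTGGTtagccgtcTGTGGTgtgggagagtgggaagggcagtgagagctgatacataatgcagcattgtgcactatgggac
Irf4, chr13:30748983-30749232, plus strand: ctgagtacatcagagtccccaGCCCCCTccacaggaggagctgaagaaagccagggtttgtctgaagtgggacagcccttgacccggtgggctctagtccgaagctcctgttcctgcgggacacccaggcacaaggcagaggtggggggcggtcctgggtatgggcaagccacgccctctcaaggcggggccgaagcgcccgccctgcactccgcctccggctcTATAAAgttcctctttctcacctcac

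The Irf4 run was 63.6% G and C, that of Rag1 50.8% and that of Rag2 41.2%. Rag1 held TGTGGT at 2 places, 81 and 67 bases before the start, and CAGGTG 135 bases before it. Among 32851 RefSeq promoters of this length, 14.0% held TGTGGT and 17.2% held CAGGTG. Irf4 held TATAAA 26 bases before its start, a motif found in 12.4% of promoters, and the CTCF core on its minus strand, found in 25.0%. The Rag2 run held none of the 5 motifs, and TGTTTAC, found in 3.17% of promoters, was in none of the 3 runs. These are matches of letters only. In RefSeq order the protein-coding genes run Iftap, Rag2, Rag1, Traf6, with Rag2 on the plus and Rag1 on the minus strand, so the Rag genes point at each other. The sides of the Rag window at lower and at higher positions are thus upstream of Rag2 and of Rag1. Irf4, on the plus strand, stands between Dusp22 and Exoc2.

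Inside the Rag window cohesin was called at 2 places, one near each edge, and the stretch between them carried no peak in any list. Region 6, at the edge where Rag2 lies (101464767 to 101465419), was called in both WT libraries and in knockout replicate 1, and not in knockout replicate 2. Its folds were 3.66 in WT replicate 1, 3.51 in WT replicate 2 and 3.09 in knockout replicate 1. These ranked 16349 of 21971, 18499 of 23029 and 24678 of 25145, so it was a weak peak wherever it was called. The peaks were 243, 566 and 510 bp wide. The knockout peak had a −log10 q of 1.18, close to the lowest value of that list, 1.01.

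Region 7, near the edge on the Rag1 side (101492621 to 101493671), was called in all 4 libraries. Its folds were 3.25 and 3.44 in WT versus 3.09 and 2.86 in knockout replicates 1 and 2. By fold it ranked 20655 of 21971 and 19363 of 23029 in WT versus 24691 of 25145 and 21976 of 22792 in the knockout. These are percentiles 5.99, 15.9, 1.81 and 3.58. By −log10 q the same peaks stood higher, with 6.52 and 8.43 in WT versus 4.81 and 3.31 in knockout libraries, which are percentiles 84.2, 91.8, 72.5 and 62.5. Peaks below percentile 20 by fold and above percentile 60 by −log10 q were 0.810% and 0.660% of the WT lists. In the knockout lists they were 0.330% and 1.94%. Nothing was tested with these shares. The peaks were wide, 986 and 830 bp in WT versus 991 and 1035 bp in knockout libraries.

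The strongest cohesin site of the Rag domain lay just outside the gene window, 7.97 kb beyond its Rag1 edge, on the side where Traf6 is the next protein-coding gene. Region 8 (101504967 to 101506347) had folds of 6.47 and 6.48 in WT versus 7.46 and 5.15 in knockout libraries. Its ranks were 398 of 21971, 267 of 23029, 204 of 25145 and 682 of 22792, so all 4 lists held it above the 97th percentile. Its −log10 q was 23.3 and 24.6 in WT versus 28.0 and 13.5 in the knockout. The other 31 regions reached a −log10 q of at most 9.46 in any list.

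On the Rag2 side, 3 more regions were called in every library. Region 5 was the nearest, 25.3 kb from the window (101437123 to 101438667), and at 1545 bp the widest merged region of the domain. Its folds were 4.11 and 4.36 in WT versus 4.60 and 2.84 in knockout replicates 1 and 2. The second knockout library stood apart there, with a rank of 22038 of 22792 and a −log10 q of 1.20, against percentiles of fold of 50.4 to 66.9 and −log10 q of 7.06 to 8.08 in the other 3. Region 3, 97.3 kb from the window (101365347 to 101366691), had folds of 4.14 and 3.64 in WT versus 3.91 and 3.19 in the knockout, ranks 10522, 16690, 15278 and 19426. Like region 7 it was wide (682 to 1243 bp) and ranked higher by −log10 q, at percentiles 74.1 to 94.7, than by fold, at 14.8 to 52.1. Region 1, 150.7 kb away (101312575 to 101313270), had folds of 4.58 and 4.97 in WT versus 4.73 and 4.28 in the knockout. It ranked 6455, 3711, 7262 and 4258, within the upper 30% of each list.

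Region 1 was also the border of a long empty stretch. No list held a peak between 98507499 and 101312575, a length of 2805 kb that was 48th among 34723 stretches between neighbouring regions. It was picked as the longest stretch touching the Rag domain, and most of it lies outside that domain. Nothing is therefore read from its rank. The median stretch was 24.5 kb. The first region outside the Rag domain on that side was thus 2656.5 kb beyond its edge and, at the other end, 73.4 kb beyond, both called in all 4 libraries. No genome sequence or repeat annotation of mm9 was used, so the part of this stretch that reads cannot map to was not measured. For the same reason, whether the regions at its borders are artefacts of mapping was not checked.

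Beyond region 8 on the Rag1 side lay 6 regions, each missing from at least 1 library; 41.7% of all merged regions were called in all 4. This stretch was picked after region 8 was seen, so nothing is read from the count. Region 9 (101533333 to 101534497) was absent from knockout replicate 1 only, and region 14 (101745774 to 101746512) from knockout replicate 2 only. Of all regions of the genome missing from a single library, 18.7% were missing from the first knockout list and 40.4% from the second. Region 14 had folds of 3.88, 4.85 and 4.71 in the lists that held it. Region 10 was found in WT replicate 2 and knockout replicate 1, and regions 11, 12 and 13 in 1 library each. Of the 5 regions of the whole Rag domain called in a single library, 2 came from each WT list and 1 from the first knockout list, with folds of 2.53 to 4.17. Over the whole genome the WT lists supplied 15.0% and 19.7% of single-library regions, and the knockout lists 35.5% and 29.8%. The Rag regions thus came more from WT lists than these shares, but they are only 5 and no difference was tested.

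**Figure D1:**
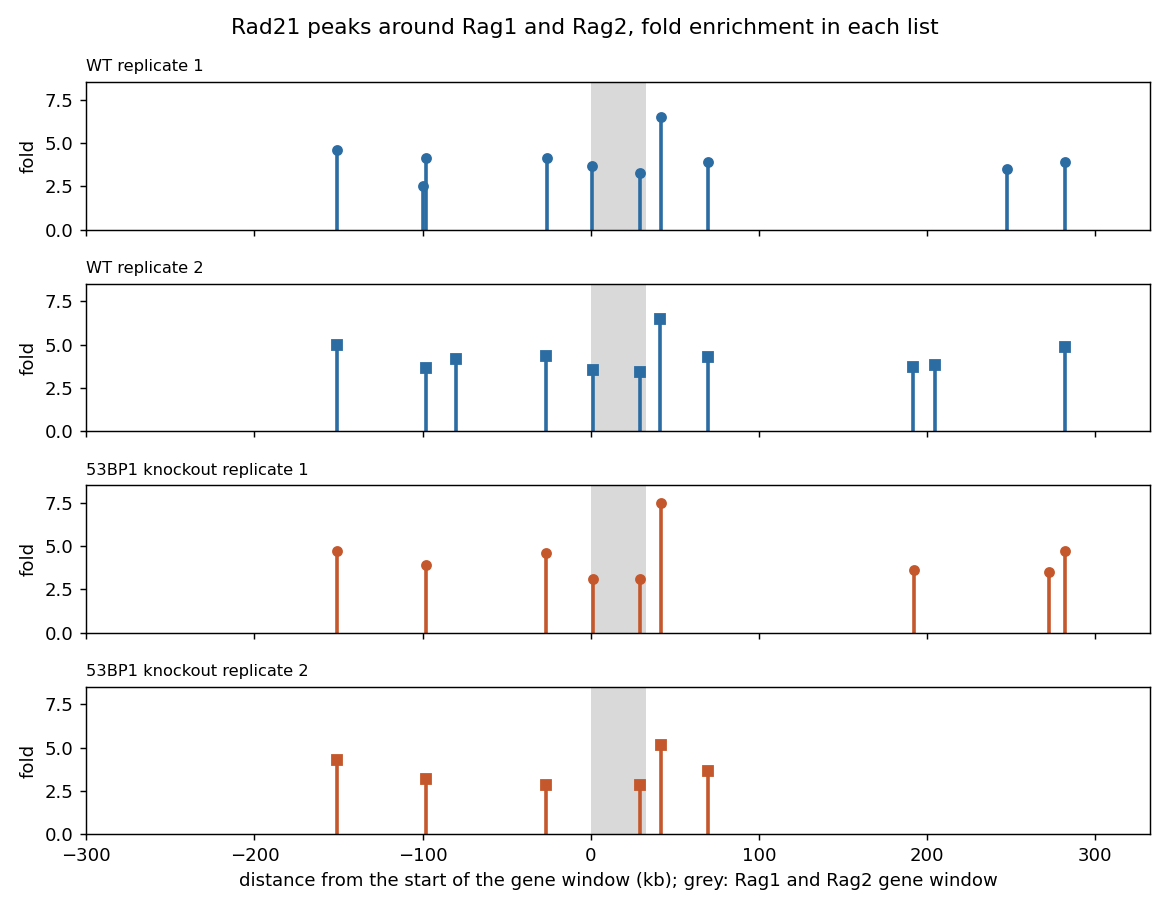
Rad21 peaks around Rag1 and Rag2 in each library. The horizontal axis is the distance in kb from the start of the gene window (grey), and the height of each line is the authors' fold of the peak. The tallest peak in all 4 panels is region 8, just beyond the window, with folds of 5.15 to 7.46, and the second knockout library holds 6 peaks.

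In the Irf4 window no cohesin site was found in more than 1 library. Region 13 (30841262 to 30841560) was a peak of knockout replicate 1, with a fold of 3.24 and rank 23458 of 25145. Region 14 (30841942 to 30843083) was a peak of WT replicate 2, with a fold of 3.17 and rank 21979 of 23029. Region 15 (30852922 to 30853520) was a peak of knockout replicate 2, with a fold of 2.89 and rank 21847 of 22792. All 3 thus lay below the 7th percentile of their lists, and WT replicate 1 had no peak in the window. Regions 13 and 14 lay near the edge where Irf4 begins, 381 bp apart, and became 1 region held by 1 library of each genotype when peaks within 500 bp were merged.

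The nearest sites found in every library lay more than 100 kb from the Irf4 window on both sides. Regions of all 4 libraries numbered 6.47 per Mb in the Irf4 domain and 5.49 per Mb over the chromosomes. On the Dusp22 side, region 6 (30674339 to 30675076) lay 165.9 kb below the window, with folds of 4.18 and 4.53 in WT versus 3.91 and 4.56 in the knockout. It ranked 10186, 6766, 15310 and 2452 in these lists. On the Exoc2 side, region 16 (30980230 to 30980960) lay 121.2 kb above the window and was the strongest shared region of the domain, ranked by its lowest percentile. Its folds were 6.82 and 5.76 in WT versus 5.93 and 4.22 in the knockout, with ranks of 245, 1024, 1734 and 4775. Between regions 6 and 16 ran 305.2 kb with no region of all 4 libraries, and 10.9% of such stretches were longer. The median stretch between regions of all 4 libraries was 60.0 kb. The stretch of 305.2 kb was taken because it holds Irf4. Long stretches hold more positions than short ones, so nothing is read from its place among all stretches.

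Farther out, region 5 (30658150 to 30659412) had folds of 5.28 and 5.81 in WT versus 5.59 and 3.80 in the knockout, ranks 2587, 944, 2763 and 9435. Its peaks were 578 and 524 bp wide in WT versus 1092 and 1191 bp in knockout libraries, so the 2 knockout peaks were both wider. The second knockout list had the widest peaks of the 4, with a median of 564 bp, but the first had the narrowest, 476 bp, against 512 and 509 bp in WT. Region 17 (31073506 to 31074909), at 1404 bp the widest merged region of the domain, had folds of 3.88, 4.24, 4.70 and 3.52 in the same order. Its width came from knockout replicate 2, with 1285 bp against 352 to 558 bp in the others. Just outside the domain, the next regions were a peak of knockout replicate 2 alone, 72.2 kb beyond the lower edge, and a region of WT replicate 2 and knockout replicate 2, 15.2 kb beyond the upper edge.

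Regions were next sorted by whether they followed genotype, that is, were called in both libraries of one genotype and neither of the other. Of the 18 regions around Irf4 2 were WT-only and 1 was knockout-only, against 2.19% and 3.05% of all merged regions. In the Rag domain 0 of 14 followed genotype, where the share over all regions was 5.23%. This contrast between the domains turned with the settings: keeping only peaks whose −log10 q reached 5, 1 Rag region and 0 Irf4 regions followed genotype, and with lists of equal length 1 and 2 did. Leaving out any 1 library gave 2 in the Rag domain. In that case 1 library stands for its genotype, which loosens the rule, so nothing is read from that rise. No difference between the domains, or from the shares over all regions, was tested. Region 7 of the Irf4 domain (30686618 to 30687370), WT-only, had folds of 4.78 and 3.62, ranks 5038 and 16939. Region 11 (30752046 to 30752498), also WT-only, had folds of 3.55 and 3.51, ranks 17738 and 18381. It lay 399 bp from region 10, a peak of knockout replicate 1 with a fold of 3.90, and joined it when peaks within 500 bp were merged. Region 12 (30777913 to 30778211), knockout-only, had folds of 3.45 and 3.92, ranks 21316 and 7874. Its peak in knockout replicate 1 was 204 bp wide, the least width that list holds. None of the 3 reached a −log10 q of 5 in any list.

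Of the other Irf4 regions, 3 were each missing from 1 knockout library: regions 4 and 9 from the first and region 8 from the second. Over the whole genome, 59.2% of regions missing from a single library were missing from a knockout one, 18.7% from the first and 40.4% from the second. Region 4 (30644988 to 30645594) was the strongest of them, with folds of 5.06, 5.11 and 4.15. Regions of a single library numbered 8, of which 4 came from knockout replicate 2, 3 from knockout replicate 1 and 1 from WT replicate 2. The knockout lists also supplied 65.3% of all single-library regions of the genome. Regions 2 and 3, 1 from each knockout library, were only 72 bp apart and followed genotype as 1 region when peaks within 500 bp were merged.

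**Figure D2:**
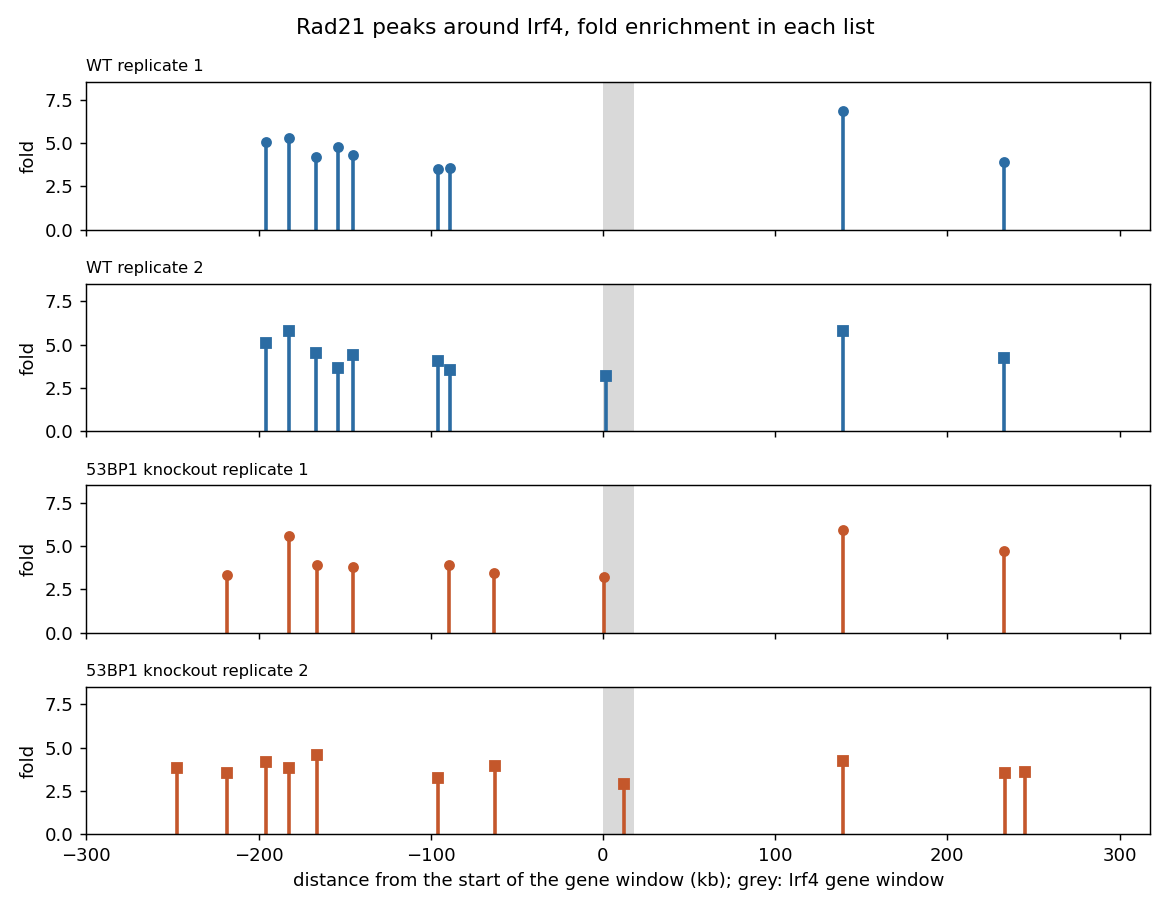
Rad21 peaks around Irf4 in each library, drawn as for the Rag genes: distance in kb from the start of the gene window (grey) against the authors' fold. The window holds 0 or 1 peak in each panel, and the nearer of the peaks that all 4 lists share on the right, region 16, lies 121.2 kb beyond the window with folds of 4.22 to 6.82.

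The 2 genotypes were then compared over each domain, to see whether the number or length of cohesin peaks differed without 53BP1. The Rag domain held 10 and 11 peaks in WT versus 9 and 6 in knockout replicates 1 and 2, so both knockout counts lay below both WT counts. That order was found in 3.75% of windows of this length tiled along the genome. Many tiled windows held few peaks in any library and could hardly show it. The share therefore does not tell how rare the order is among windows with as many peaks. When only peaks whose −log10 q reached 5, or only those whose fold reached 4, were kept, the first knockout library equalled the first WT library at 4 peaks. The difference was then −2 peaks under each (exact permutation p = 0.667). Means were 10.5 ± 0.71 and 7.5 ± 2.1 (SD, n = 2 each), and the two-sided exact permutation test gave p = 0.333, the smallest that 2 against 2 libraries allow. Peaks covered 7.48 and 7.54 kb in WT versus 5.94 and 4.95 kb in knockout libraries (exact permutation p = 0.333). The names of peaks in the lists carry a prefix shared by libraries of the same replicate number. Within replicate 1 the knockout held 1 peak fewer and within replicate 2 it held 5 fewer. The covered length differed by −1.54 and −2.59 kb. Without the second knockout library, whose list has the fewest strong peaks, the difference in peak number was −1.5 in place of −3; the part of list strength in it was not tested.

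The Irf4 domain held 9 and 10 peaks in WT versus 9 and 11 in knockout libraries, and the groups overlapped (difference 0.5, exact permutation p = 1). Peaks covered 3.72 and 5.22 kb in WT versus 3.86 and 7.04 kb in the knockout (exact permutation p = 0.667). Within replicates 1 and 2 the knockout differed by 0 and 1 peaks and by 0.138 and 1.82 kb. Without the second knockout library the differences turned to −0.5 peaks and −0.614 kb, and among peaks of fold 4 or more to −3.5 peaks and −0.907 kb. Covered length rests on few wide peaks: in knockout replicate 2 the peaks of regions 5 and 17 alone were 1191 and 1285 bp.

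In the share of regions found by every library, 5 of 14 (35.7%) in the Rag domain and 4 of 18 (22.2%) in the Irf4 domain were common to all 4 lists, against 41.7% of all merged regions. Regions of a single library were 5 of 14 and 8 of 18, against 30.7% of all regions. In the Irf4 domain the shared regions had median percentiles of fold of 68.8 to 83.1 in the 4 lists, where shared regions of the whole genome had 58.6 to 66.3. In the Rag domain they had 14.8 to 66.9 by fold but 62.5 to 90.5 by −log10 q. These are descriptions of the members and were not tested.

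**Figure D3:**
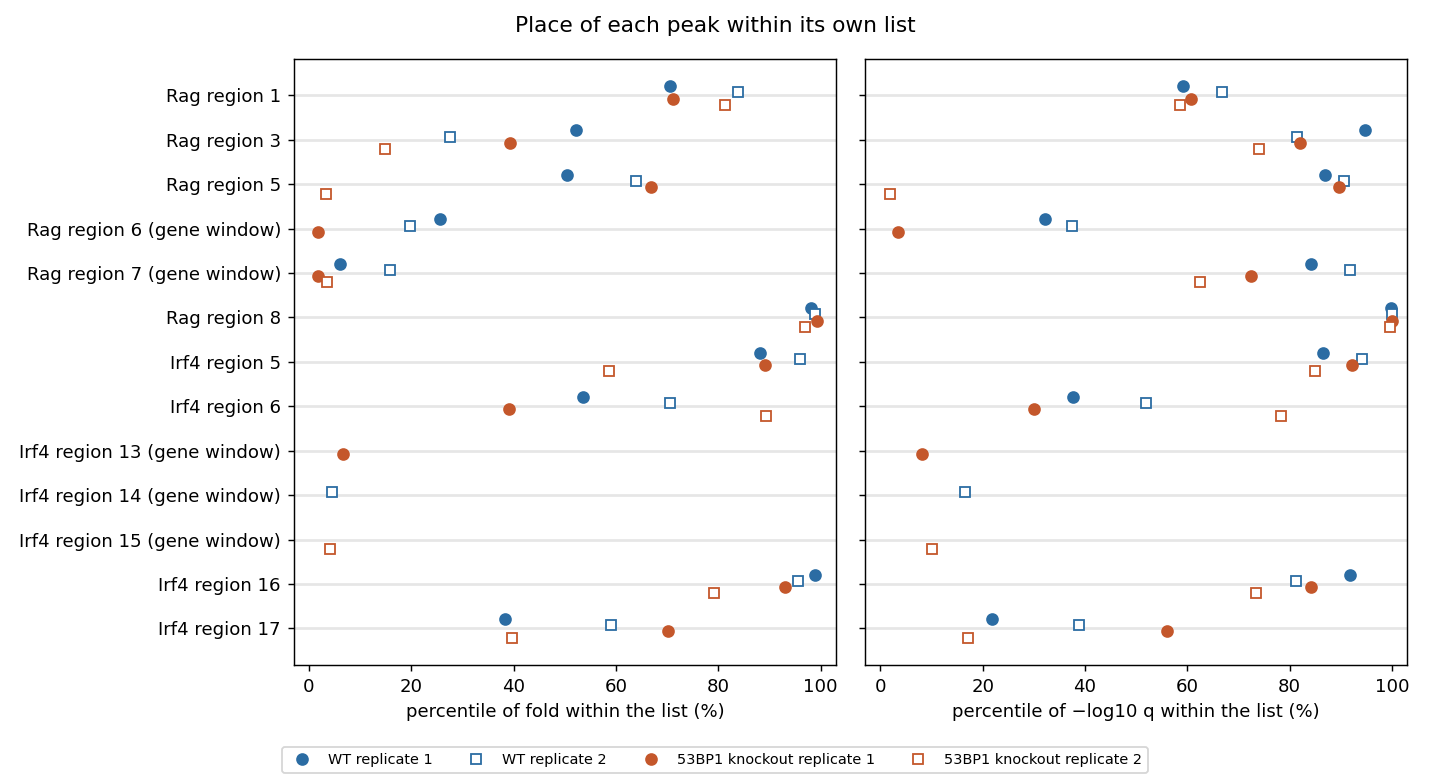
Percentile of each peak within its own list, by the authors' fold (left) and −log10 q (right), for regions called in all 4 libraries or lying in a gene window. Each point is the peak of 1 library. Region 8 of the Rag domain lies above 97% in both panels, region 7 lies low by fold and above 62% by −log10 q, and the Irf4 window holds single points at the low end.

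Both domains were occupied more densely than the chromosomes as a whole in every library and, by their means, less densely than the surroundings of other genes of the B cell programme. Peaks per Mb were 14.2 ± 3.4 in the Rag domain and 15.8 ± 1.5 in the Irf4 domain (mean ± SD over the 4 libraries), against 8.81 over the chromosomes. The Rag domain begins at 101164000, inside the long empty stretch that ends at 101312575. That part is counted in the Rag density, although how much of it reads can map to was not measured. Its share in the low Rag density was not tested. Among windows of the same length tiled along the genome, the median held 3 or 4 peaks in each library, and the upper quartile began at 8 to 10. A list of 9 transcription factor genes was measured with the same flanks, in approximate mm9 windows set from background knowledge. Of these, Foxo1, Tcf3, Ebf1, Pax5, Ikzf1, Runx1 and Myb encode factors of early B cell development, several of them known to act on the Rag genes; Spi1 and Irf8 encode PU.1, a partner of IRF4 on DNA, and a relative of IRF4. All 9 had a higher mean density than either domain, from 20.2 peaks per Mb around Pax5 to 45.2 around Tcf3. Taken library by library, a listed gene had the higher density in 71 of 72 comparisons. These count the same genes and domains again in each library and are not independent. The exception was Spi1 (17.4) against Irf4 (17.8) in the second knockout library. That library held 6.97% of its peaks on chromosome 10, where Tcf3 and Myb lie, and the other 3 held 5.39 to 5.52%; the part of this in those 2 densities was not tested. Of the 265 regions around the listed genes, 46.0% were called in all 4 libraries. A region of all 4 libraries lay inside the gene window itself at 7 of the 9 genes, the exceptions being Irf8 and Tcf3; the windows differ in length, and those of Pax5, Runx1 and Ebf1 are far longer than that of Irf4.

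**Figure D4:**
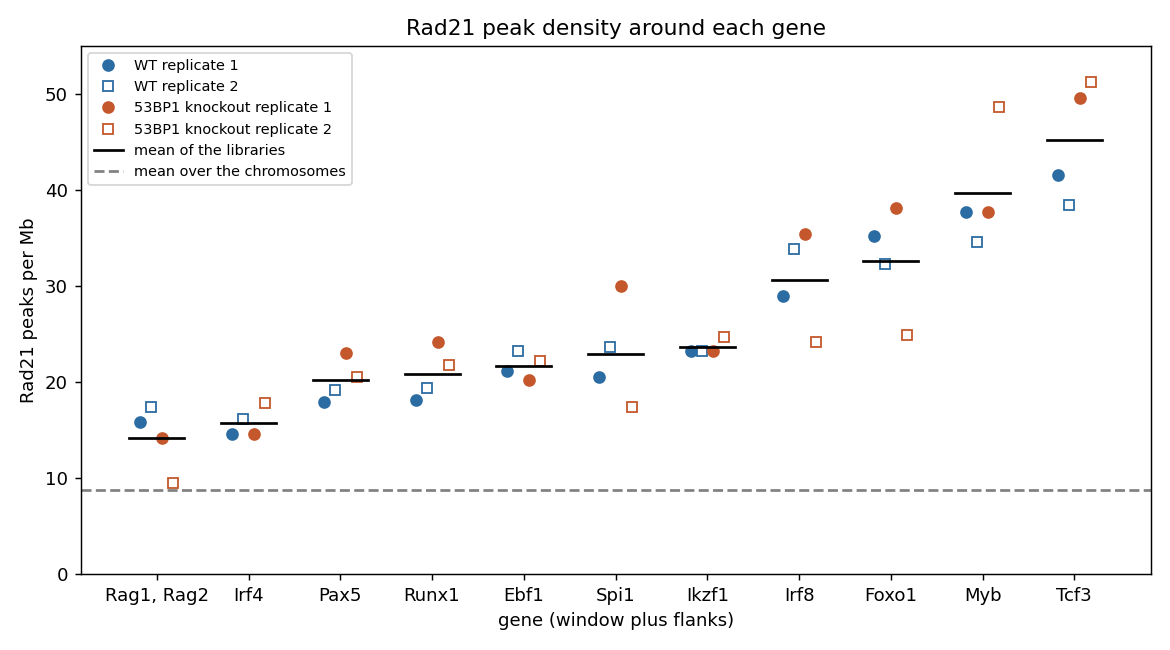
Rad21 peaks per Mb in the gene window and both flanks, for the Rag and Irf4 domains and the 9 listed genes in order of their mean. Points are libraries, bars are the mean of the 4, and the dashed line is the mean over the chromosomes, 8.81. The Rag and Irf4 domains have the lowest means, 14.2 and 15.8. The Rag domain includes the end of a long empty stretch whose mappable part was not measured.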

How the data were processed

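Each of the 4 libraries came with a deposited peak list (9 columns, no header, laid out as MACS2 broad peaks), so peaks were called per library. Per the submitters' processing notes, Bowtie2 2.4.4, SAMtools 1.15.1, deepTools 3.5.1 and MACS2 2.2.7.1 were used with mm9; for parameters and any input control, the sources used here give nothing. The deposited fold is a ratio of signal to background per peak. The deposited −log10 p and −log10 q belong to the peak within its list, and the deposited score, not used further, equals that −log10 q multiplied by 10 and cut to a whole number. Depth is unknown, so a shallower library can list fewer or weaker peaks.

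The analysis kept chromosomes 1 to 19 and X (Python 3.11.15, pandas 2.3.3). Touching or overlapping peaks (1 bp) were merged, and libraries were compared with an exact permutation test over 6 arrangements, after a check on simulated lists. Positions are 1-based. The mean over the chromosomes divides by the position of the last peak of each.

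The members, windows and gene list were chosen with earlier results of these data known. Values were printed for regions in a gene window, the nearest region of all 4 libraries on each side, the 3 shared regions with the highest lowest percentile, regions that followed genotype and the widest region; others named were picked after their values were seen. Replicate numbers were not used as pairs: differences between the numbers in 2302 windows of 1 Mb correlated at 0.03 between genotypes. Alternatives were stricter thresholds, lists of equal length, a flank of 100 kb, merging within 500 bp, a replicate block and leaving out each library.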

Additional observations from a re-analysis of the deposited data

How the results depend on the processing

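Of 40 values recomputed under the alternatives, leaving out a library aside, 26 kept their direction or stayed within 1.5 times. The values of the replicate block are among these 26, although they could not differ from the main ones. With only peaks reaching a −log10 q of 5, the Irf4 difference (knockout minus WT) became −0.5 peaks, regions of all 4 libraries fell to 1 in each domain, and genotype-following regions were 1 in the Rag and 0 in the Irf4 domain. At a fold of at least 4 the Irf4 difference was −3.5 peaks and −0.907 kb, with 2 shared regions in the Rag and 1 in the Irf4 domain, and 1 that followed genotype there. With equal list lengths the Irf4 difference was −1 peak, and 1 Rag region and 2 Irf4 regions followed genotype. With a flank of 100 kb the Irf4 domain held 0 shared regions and its covered length differed by −0.406 kb. The Rag differences stayed negative under these settings, but at either threshold a knockout library tied with a WT library in peak count (−2 peaks, exact permutation p = 0.667). Leaving out 1 library gave −4.5 to −1.5 peaks and −2.56 to −1.57 kb for Rag, −0.5 to 1.5 peaks and −0.614 to 2.57 kb for Irf4, 5 to 7 and 4 to 6 shared regions, and 2 and 3 to 8 that followed genotype. The 8 came from leaving out either knockout library, and leaving out a WT library gave 4 and 3. With a library left out, 1 library stands for its genotype, and fewer calls make a region shared or genotype-following. A region called only in that 1 library, or absent only there, then counts as following genotype. Both kinds of count can therefore rise by construction. In the replicate block, the mean of differences within replicate numbers equals the difference of means by construction: −3 and 0.5 peaks, −2.07 and 0.98 kb. Depth is unknown, so a site not listed in a library may lie under its detection limit.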
